A study of Mus musculus with 4 samples.

Results

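The genes described here encode the subunits of BAF, the mammalian SWI/SNF chromatin remodeller, and include Smarcc1, the gene targeted in the knockout embryos. They were chosen by name, as a list of 30 subunit genes that includes each set of paralogs able to fill the same place in the complex, and all 30 were found by Ensembl identifier among the 35689 genes of the expression table. A gene was tested where 2 or more libraries held it at 1 TPM or above, which was so for 28 of the 30 and not for Dpf3 and Actl6b. TPM, the abundance unit of the table, corrects for the length of each transcript and gives each library the same total, so levels of different genes can be set beside each other.

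RNA came from forelimb buds at E11.5, with 4 mouse embryos sequenced and the left and right bud of each making 1 library. The 2 knockout embryos, PrxCre/+;Smarcc1c/c, carried a conditional allele of Smarcc1 on both chromosomes and the PrxCre transgene, whose Cre recombinase is active in limb bud mesenchyme and not in the ectoderm, blood or endothelium of the bud. The 2 control embryos, Prx+/+;Smarcc1c/c, carried the same conditional alleles and no Cre, so that presence of the Cre transgene and loss of Smarcc1 go together. In each genotype replicate 1 had 40 somites and replicate 2 had 39 somites, and values are given in that order throughout. Ddx3y, on the Y chromosome, stood at 0.0498 and 28.3 TPM in mutant buds and 0.013 and 30.2 TPM in control buds, so sex goes with somite stage and not with genotype. TPM does not keep the read depth, which is unknown here. The number of genes at 1 TPM or above lay between 12555 and 12689 per library.

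BAF uses the energy of ATP to slide and evict nucleosomes, and opens enhancers and promoters for transcription factors during development. The complex is built around a scaffold of BAF155 and BAF170, the products of Smarcc1 and Smarcc2, onto which BAF60, BAF47 and BAF57 assemble before the ATPase joins. It exists in a canonical form marked by ARID1 proteins, a polybromo form (PBAF) marked by ARID2 and PBRM1, and a non-canonical form marked by BRD9 and GLTSCR1 proteins. Many places in the complex can be filled by alternative paralogs whose choice differs between cell types, as in neurons, which use BAF53B in place of BAF53A.

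The start regions of 2 pairs of paralogs are printed. Smarcc1 and Smarcc2 are the targeted gene and its paralog. Of Actl6a and Actl6b, only Actl6a reached 1 TPM in any library. Each run is the 250 bases before a start site annotated by RefSeq on the plus strand of GRCm38.p6 (mm10), at chr9:110131774-110132023 for Smarcc1, chr10:128458986-128459235 for Smarcc2, chr3:32708296-32708545 for Actl6a and chr5:137553296-137553545 for Actl6b. The Smarcc1 and Actl6a windows lie inside the GENCODE bounds of their genes, which begin at 110117708 and 32706298. Capitals mark the dinucleotide CG, which reads the same on both strands.
Smarcc1: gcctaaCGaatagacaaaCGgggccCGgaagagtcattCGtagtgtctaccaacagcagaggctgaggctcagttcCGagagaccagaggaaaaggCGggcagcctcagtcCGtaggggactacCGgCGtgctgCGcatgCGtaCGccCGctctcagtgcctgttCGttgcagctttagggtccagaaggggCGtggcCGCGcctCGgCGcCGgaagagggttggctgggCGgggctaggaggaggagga
Smarcc2: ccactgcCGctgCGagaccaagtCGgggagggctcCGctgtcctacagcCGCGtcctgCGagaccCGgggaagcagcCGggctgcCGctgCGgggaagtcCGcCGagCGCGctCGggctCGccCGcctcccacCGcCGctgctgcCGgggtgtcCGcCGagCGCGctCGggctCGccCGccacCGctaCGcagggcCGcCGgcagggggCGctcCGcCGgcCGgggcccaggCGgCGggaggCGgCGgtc
Actl6a: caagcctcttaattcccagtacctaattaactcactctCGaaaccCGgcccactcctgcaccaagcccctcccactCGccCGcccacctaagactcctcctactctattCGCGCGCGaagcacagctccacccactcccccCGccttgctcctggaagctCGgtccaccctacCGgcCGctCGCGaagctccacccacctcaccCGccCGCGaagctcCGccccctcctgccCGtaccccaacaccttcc
Actl6b: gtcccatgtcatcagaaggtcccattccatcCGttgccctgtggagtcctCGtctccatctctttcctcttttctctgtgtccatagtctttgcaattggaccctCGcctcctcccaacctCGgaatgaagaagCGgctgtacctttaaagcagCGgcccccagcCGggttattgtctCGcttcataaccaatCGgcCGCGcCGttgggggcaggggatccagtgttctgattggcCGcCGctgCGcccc
The 4 windows hold 21, 40, 19 and 15 CG dinucleotides in the order printed. The promoter table matched 24 of the 30 genes, with 26 windows whose median was 26.5 CG and whose range was 4 to 51, beside a median of 6 over all 32851 windows, of which 92.1% hold at least 1 CG. Actl6b, near 0 TPM in all 4 libraries, and Actl6a, among the most abundant subunit genes, both lay above the median of all windows.

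Smarcc1, the targeted gene (ENSMUSG00000032481, chromosome 9, 110117708 to 110240178, plus strand), had 46.2 and 38.4 TPM in the knockout libraries, against 112 and 119.6 TPM in the control libraries. Both knockout libraries lay far below both controls, and transcript at 36.5% of the control mean was still counted. The log2 fold change, knockout minus control on log2(TPM + 1), was -1.44 ± 0.13 (SE), with a 95% interval from -1.75 to -1.13 and an adjusted p of 0.0117 by limma with Benjamini-Hochberg adjustment over all 12809 genes tested. The difference was -1.26 between the embryos of 40 somites and -1.615 between those of 39 somites. Only 0.304% of the genes tested had a log2 fold change as low or lower. Without a filter on low values the fold change was again -1.44, but with a limma adjusted p of 0.111 the gene did not pass.

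The remaining Smarcc1 transcript comes from whole buds, in which fewer cells of a type and less RNA per cell cannot be told apart, and a gene-level TPM also counts transcript from a recombined allele. Markers of cells outside the PrxCre domain were present in both genotypes. The summed TPM of 7 endothelial markers was 55.0 and 80.7 in mutant buds and 43.2 and 80.4 in control buds, and 6 of the 7 had a log2 fold change above 0. That of 12 surface ectoderm markers was 498.6 and 315 in mutant buds and 636.8 and 417.5 in control buds, and 12 of the 12 had a log2 fold change below 0, with a median of -0.425. That of 7 erythroid markers was 10170 and 9687 in mutant buds and 8804 and 9084 in control buds, and 7 of the 7 had a log2 fold change above 0, with a median of 0.34. On these 3 lists 0 markers passed by limma, and those at an unadjusted p under 0.05 were 4 lower ectoderm markers and 1 higher erythroid marker. Among all genes tested 6.89% were lower and 6.78% higher at that p. With somite stage as a block, the ectoderm markers Cldn6, Perp and Grhl3 passed as lower (limma adjusted p = 0.023, 0.0251 and 0.0496). The block called 2.08% of all genes tested as lower, against 0.492% without it. The part of these cell types in the remaining Smarcc1 level was not tested. Dhx30, whose exons overlap those of Smarcc1 on the opposite strand, had 48.8 and 56.8 TPM in mutant buds and 48.3 and 55.05 TPM in control buds, and whether the authors' counting used strand is not given in the sources used here.

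Smarcc2, the paralog that encodes BAF170, stood at 51.1 and 54.8 TPM in mutant buds, against 49.6 and 52.1 TPM in control buds. The genotypes overlapped. Its log2 fold change was 0.06 ± 0.11 (SE) with a 95% interval from -0.20 to 0.32, and the test over all genes was not passed (limma adjusted p = 0.887). The interval takes in small differences in either direction.

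The order of the scaffold pair was turned at the level of transcript, and protein was not measured here. Of the summed TPM of the pair, Smarcc1 made up 47.5% and 41.2% in mutant buds, against 69.3% and 69.7% in control buds. Smarcc2 was the more abundant of the pair in both knockout libraries, and Smarcc1 in both controls. The ratio of Smarcc1 to Smarcc2 was 0.904 and 0.70 in mutant buds and 2.26 and 2.29 in control buds. The mean Smarcc1 share was 25.2 percentage points lower in mutant buds, -21.8 at 40 somites and -28.5 at 39. An exact two-sided permutation test of 2 against 2 libraries gave p = 0.333, the smallest value that this design allows, so no share can pass that test at 0.05.

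The summed TPM of the scaffold pair was 97.2 and 93.2 in mutant buds, against 161.6 and 171.7 in control buds, which left 57.1% of the control mean. The scaffold sum was 0.896 and 0.805 times the ATPase sum in mutant buds and 1.44 and 1.32 times in control buds, so the scaffold transcripts went below those of the ATPases in both knockout libraries. The Smarcc1 difference sets the Smarcc1 share of the pair, the scaffold sum and this ratio as well, so they are not separate evidence of a change.

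**Figure D1:**
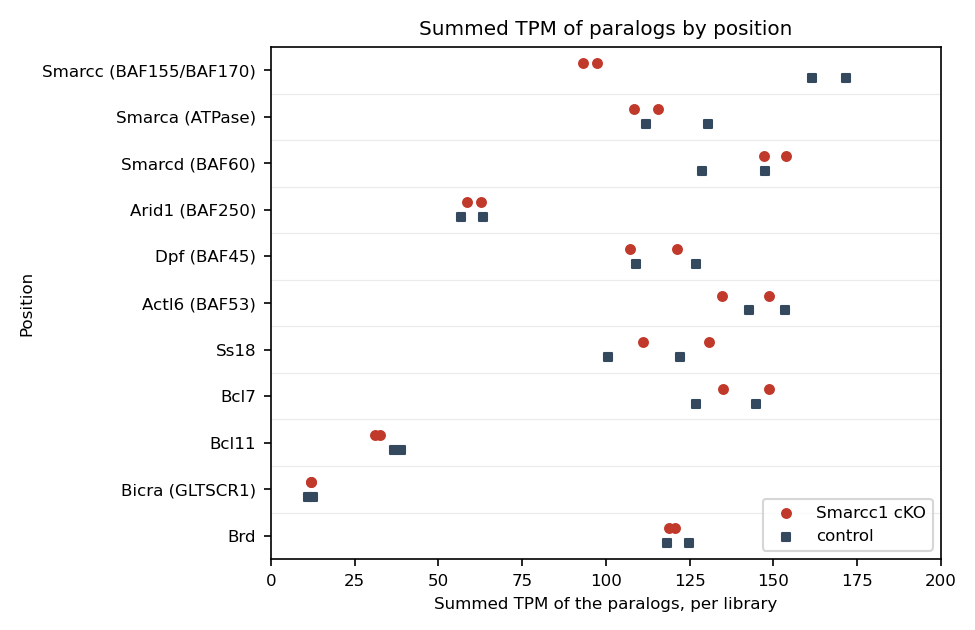
Summed TPM of the paralogs in each of 11 groups of paralogs (rows) in each library (horizontal axis, TPM); circles are the Smarcc1 cKO libraries and squares the control libraries, 2 of each. The scaffold row separates at 97.2 and 93.2 TPM in mutant buds against 161.6 and 171.7 TPM in control buds; the Bcl11 row is also separated, and the other 9 rows overlap.

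Over all 12809 genes tested, limma called 1.30% at an adjusted p under 0.05, of which those higher in mutant buds made 0.812% and those lower made 0.492% of the genes tested. Among the 28 subunit genes the counts were 0 higher and 1 lower, Smarcc1, and 27 did not pass. With somite stage as a block the calls over all genes came to 4.16%, with 2.08% higher and 2.08% lower, and the subunit genes again gave 0 higher and 1 lower. Before adjustment, p lay under 0.05 for 0 higher and 2 lower subunit genes, Smarcc1 and Dpf1, beside 6.78% of all genes higher and 6.89% lower, 13.7% in all. Both knockout libraries lay above both controls for 3 subunit genes and below them for 8, 39.3% of the 28 together. Among all genes tested this was so for 22.7% above and 21.2% below, 43.9% together. The share of subunit genes with separated groups was thus near that of all genes. The median log2 fold change of the 27 genes without Smarcc1 was -0.02, and over all genes tested it was 0.01. Their median absolute log2 fold change was 0.08, and over all genes tested it was 0.14. The median 95% interval of the 27, not adjusted for the number of genes tested, reached 0.30 to either side on the log2 scale. Smaller differences were not detectable for most of them, and larger ones could also fail over all genes, as Dpf1 did at -0.65. A gene that did not pass is not shown to be equal in the genotypes.

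**Figure D2:**
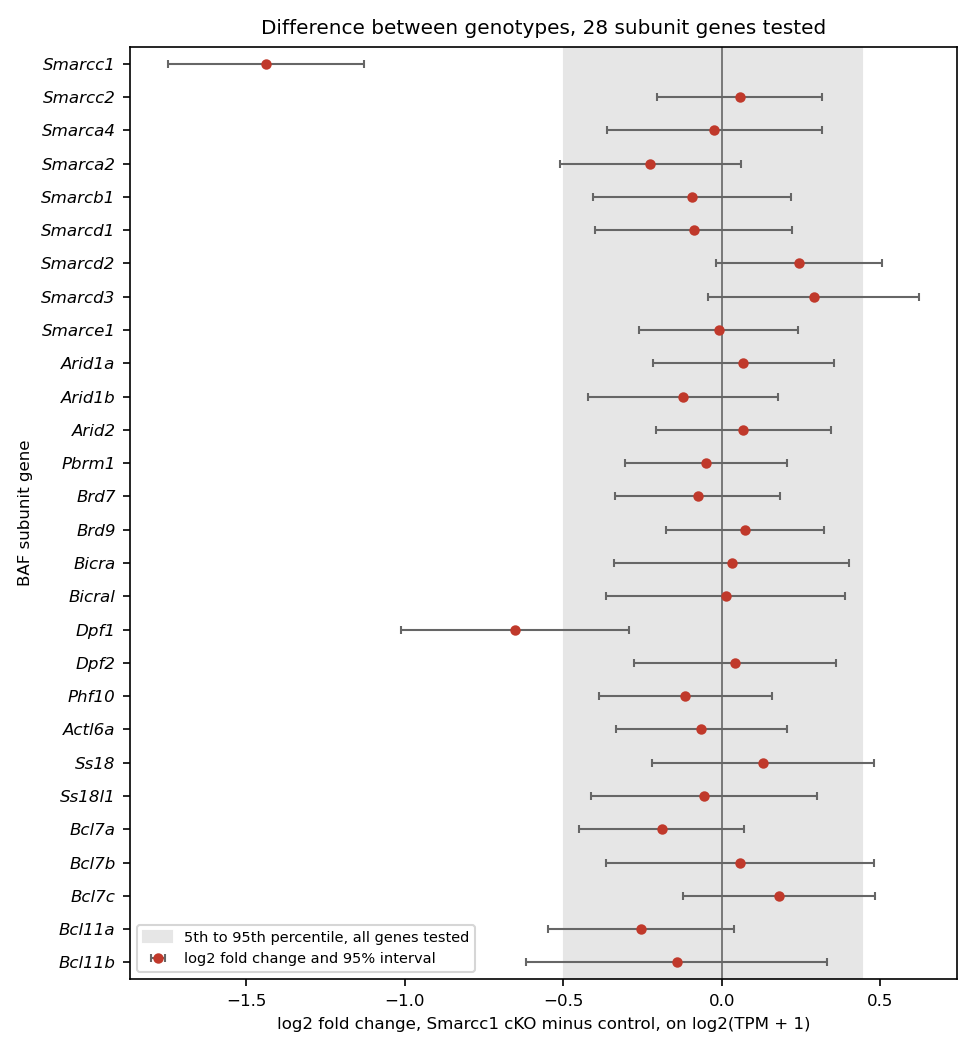
Log2 fold change on log2(TPM + 1), Smarcc1 cKO minus control, of the 28 subunit genes tested (rows) with 95% intervals from limma; the grey band runs from the 5th to the 95th percentile of all genes tested, -0.50 to 0.44. Smarcc1 at -1.44 and Dpf1 at -0.65 lie outside the band and the other 26 lie within it.

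Among the ATPases, the motors of the complex, Smarca4 (BRG1) stood at 60.6 and 71.6 TPM in mutant buds and 61.3 and 73.1 TPM in control buds. Smarca2 (BRM), its alternative, stood at 47.9 and 44.1 TPM in mutant buds, below 50.7 and 57.3 TPM in control buds. The Smarca2 difference did not pass (log2 fold change -0.23, 95% interval -0.51 to 0.06; limma adjusted p = 0.486). Smarca4 made up 55.9% and 61.9% of the pair in mutant buds and 54.8% and 56.1% in control buds, and the genotypes overlapped.

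The other core subunits overlapped between genotypes and did not pass. Smarce1 (BAF57), a DNA-binding HMG-box subunit, was the most abundant of the 30 genes, with 269 and 276.3 TPM in mutant buds and 276 and 272.7 TPM in control buds, and a 95% interval of its log2 fold change from -0.26 to 0.24. Smarcb1 (BAF47), which contacts the nucleosome, had 77.8 and 86.7 TPM in mutant buds and 80.5 and 95.4 TPM in control buds. Smarce1 stood far above the next gene in the order of levels, Actl6a, whose highest library was 153.6 TPM.

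Of the BAF60 paralogs, which link the complex to transcription factors, Smarcd2 (BAF60B) stood at 78.3 and 73.3 TPM in mutant buds and 61.5 and 66.3 TPM in control buds. Smarcd3 (BAF60C), known for its part in heart and skeletal muscle, stood at 22.9 and 20.6 TPM in mutant buds and 16.1 and 19.15 TPM in control buds. In both genes the knockout libraries lay above the controls, and neither passed (log2 fold changes 0.24 and 0.29; limma adjusted p = 0.410 and 0.438). With a library left out, the log2 fold change of Smarcd3 ran from 0.17 to 0.41. Smarcd1 (BAF60A) had 52.5 and 53.4 TPM in mutant buds, between the 51.2 and 62.05 TPM of the control. Its share of the 3 paralogs was 34.2% and 36.25% in mutant buds and 39.7% and 42.1% in control buds, a mean difference of -5.69 percentage points and the largest among the paralog groups other than the scaffold pair. Beside Smarcd3, the summed TPM of Pax3, Pax7, Myf5, Myod1 and Myog, markers of muscle progenitors, was 25.5 and 24.4 in mutant buds and 19.9 and 15.0 in control buds. Of these 5 markers 4 were tested and 0 passed by limma, with 1 higher at an unadjusted p under 0.05, Myod1, while Pax7 was below a TPM of 1 in every library. The part of muscle cells in the Smarcd3 values was not tested.

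Of the 4 genes tested that mark the canonical form 0 passed by limma, and Dpf1 alone had an unadjusted p under 0.05. Arid1a (BAF250A) had 45.0 and 47.9 TPM in mutant buds and 41.4 and 47.2 TPM in control buds. Arid1b (BAF250B), its less abundant paralog, had 13.7 and 14.95 TPM in mutant buds and 15.3 and 16.1 TPM in control buds. Arid1a therefore made up 76.7% and 76.2% of the ARID1 pair in mutant buds and 73.0% and 74.6% in control buds. Dpf2 (BAF45D), a PHD-finger subunit of the canonical form used in most cells, had 97.0 and 112 TPM in mutant buds and 93.9 and 109.2 TPM in control buds.

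Dpf1 (BAF45B), a paralog of Dpf2 best known from neurons, was the subunit gene with the largest difference after Smarcc1. It lies on chromosome 7 from 29303951 to 29318243 on the plus strand, and shares exon positions with the antisense gene Gm44632, which is not analysed here. It stood at 10.1 and 9.0 TPM in mutant buds, against 14.1 and 17.1 TPM in control buds, and the knockout libraries lay below both controls. Its log2 fold change was -0.65 ± 0.15 (SE; 95% interval -1.01 to -0.29), and it did not pass over all genes (limma adjusted p = 0.127, unadjusted p = 0.00431). Dpf1 made up 9.39% and 7.42% of the 3 Dpf paralogs in mutant buds and 12.9% and 13.5% in control buds. Dpf3 (BAF45C), a paralog known from heart and muscle, was below a TPM of 1 in every library, at 0.177 and 0.230 TPM in mutant buds and 0.908 and 0.469 TPM in control buds, and was not tested.

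The bud holds little neuronal transcript in either genotype. The summed TPM of 6 neuron and axon markers was 10.2 and 10.6 in mutant buds and 11.7 and 13.1 in control buds. Of the 6, Elavl3, Nefl and Nefm were below a TPM of 1 in every library, and 0 of the 3 tested passed by limma, with 0 at an unadjusted p under 0.05. Of 5 Schwann cell and neural crest markers, 3 were below a TPM of 1 in every library, and their sum was 9.93 and 7.78 TPM in mutant buds and 12.2 and 9.99 TPM in control buds. Both sums were lower in both knockout libraries than in both controls, narrowly so for the Schwann cell and neural crest list. The part of these cells in the Dpf1 values was not tested. Actl6b (BAF53B), the neuronal form of BAF53, was listed at 0 in both knockout libraries and in control replicate 1, and at 0.0712 TPM in control replicate 2. Actl6a (BAF53A), its counterpart in dividing cells, had 134.8 and 148.7 TPM in mutant buds and 153.6 and 142.7 TPM in control buds.

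Of the 4 genes that mark PBAF, Pbrm1 and Phf10 were lower in both knockout libraries than in both controls, narrowly so for Pbrm1. Arid2 and Brd7 overlapped. Among all genes tested, both knockout libraries lay below both controls for 21.2%, and the groups did not overlap in either direction for 43.9%. Arid2 (BAF200) had 29.3 and 30.2 TPM in mutant buds and 27.1 and 29.6 TPM in control buds. Pbrm1 (BAF180), which carries an array of bromodomains that read acetylated histones, had 42.3 TPM in both knockout libraries and 42.6 and 45.1 TPM in control buds. Brd7, another bromodomain subunit, had 71.0 and 73.9 TPM in mutant buds and 73.1 and 79.9 TPM in control buds. Phf10 (BAF45A), which takes the place of the Dpf proteins in PBAF, had 49.8 and 56.0 TPM in mutant buds and 56.7 and 57.8 TPM in control buds. Of the 4, 0 passed and 0 had an unadjusted p under 0.05, with adjusted p-values from limma of 0.745 or more and log2 fold changes from -0.11 to 0.07.

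Of the genes that mark the non-canonical form, Brd9 had 47.9 and 46.8 TPM in mutant buds, just above 45.0 and 44.9 TPM in control buds, with a log2 fold change of 0.07 (95% interval -0.18 to 0.32). Bicra (GLTSCR1) and Bicral (GLTSCR1L) were among the least abundant subunit genes, between 4.67 and 7.47 TPM in mutant buds and between 4.72 and 7.21 TPM in control buds. In sums over the marker subunits of each form, canonical BAF stood at 165.9 and 184.1 TPM in mutant buds and 165.6 and 190 TPM in control buds. PBAF stood at 192.4 and 202.3 TPM in mutant buds and 199.5 and 212.3 TPM in control buds. The non-canonical form stood at 59.75 and 58.9 TPM in mutant buds and 56.0 and 57.5 TPM in control buds. The knockout means of these sums were 98.4%, 95.9% and 105% of the control means. The 15 subunit genes outside these marker sums, leaving out Smarcc1, Bcl11a and Bcl11b, summed to 101% of the control mean.

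**Figure D3:**
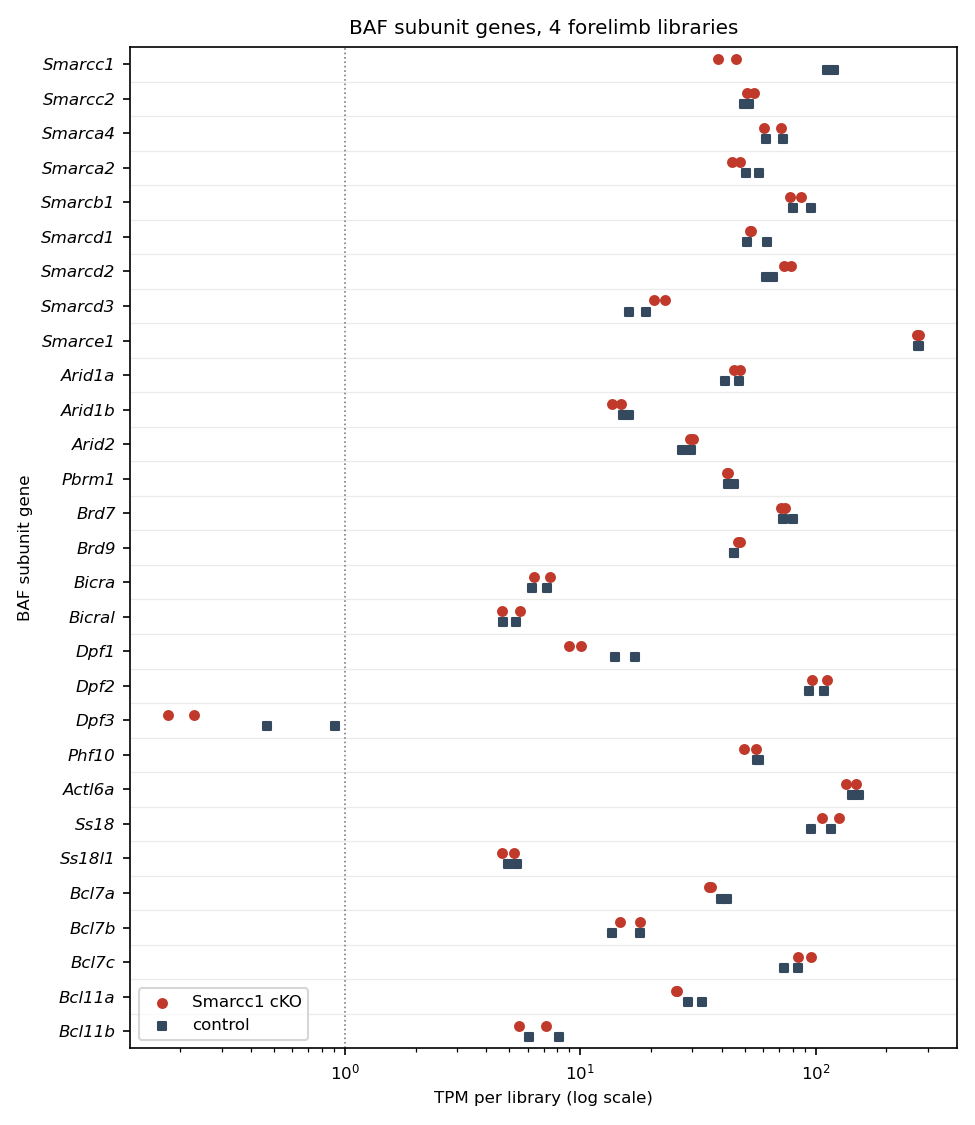
TPM of 29 subunit genes (rows) in each library on a log axis; circles are the Smarcc1 cKO libraries and squares the control libraries, 2 of each, and the dotted line marks a TPM of 1. Among genes above the line the widest gap between genotypes is that of Smarcc1, and the next that of Dpf1; Dpf3 lies below the line and Actl6b, at 0 in 3 libraries, is not drawn.

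Of the accessory subunits 0 passed by limma, with 0 at an unadjusted p under 0.05. Ss18, a subunit fused to SSX proteins in human synovial sarcoma, had 106.6 and 125.6 TPM in mutant buds and 95.6 and 116.6 TPM in control buds, and its neuronal paralog Ss18l1 (CREST) lay between 4.65 and 5.24 TPM in mutant buds and between 4.93 and 5.42 TPM in control buds. Ss18 made up at least 95.1% of this pair in every library. Bcl7a had 36.1 and 35.3 TPM in mutant buds, below 39.6 and 42.1 TPM in control buds. Bcl7c had 84.3 and 95.25 TPM in mutant buds and 73.6 and 84.6 TPM in control buds. Bcl7b had 14.8 and 18.05 TPM in mutant buds and 13.7 and 17.9 TPM in control buds. Bcl7a therefore made up 26.7% and 23.8% of the 3 Bcl7 paralogs in mutant buds and 31.2% and 29.1% in control buds, while Bcl7c made up 62.4% and 64.1% in mutant buds and 58.0% and 58.5% in control buds.

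Bcl11a and Bcl11b encode zinc finger proteins that associate with BAF in blood and neural cells. Bcl11a had 25.5 and 25.7 TPM in mutant buds, below 28.6 and 32.9 TPM in control buds, and did not pass (log2 fold change -0.25, 95% interval -0.55 to 0.04; limma adjusted p = 0.441). Bcl11b had 7.20 and 5.48 TPM in mutant buds and 8.15 and 6.07 TPM in control buds. Both Bcl11 genes were lower in mutant buds at each somite stage, and Bcl11a made up 78.0% and 82.4% of the pair in mutant buds and 77.8% and 84.4% in control buds.

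Outside the scaffold pair, paralog balance differed by at most 5.69 percentage points between genotype means in the 10 other groups of paralogs. In 6 of these groups (Smarcd, Arid1, Dpf, Ss18, Bcl7 and Brd) at least 1 share did not overlap between genotypes. No share can pass the permutation test in this design. Brd9, set beside Brd7 although they mark different forms of the complex, made up 40.3% and 38.8% of their sum in mutant buds and 38.1% and 36.0% in control buds. Bicra made up 53.5% and 61.5% of the GLTSCR1 pair in mutant buds and 57.0% and 57.4% in control buds, so the control shares lay between those of the mutant. As the shares of a group add up to 100%, a higher share of one paralog and a lower share of another are the same observation.

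**Figure D4:**
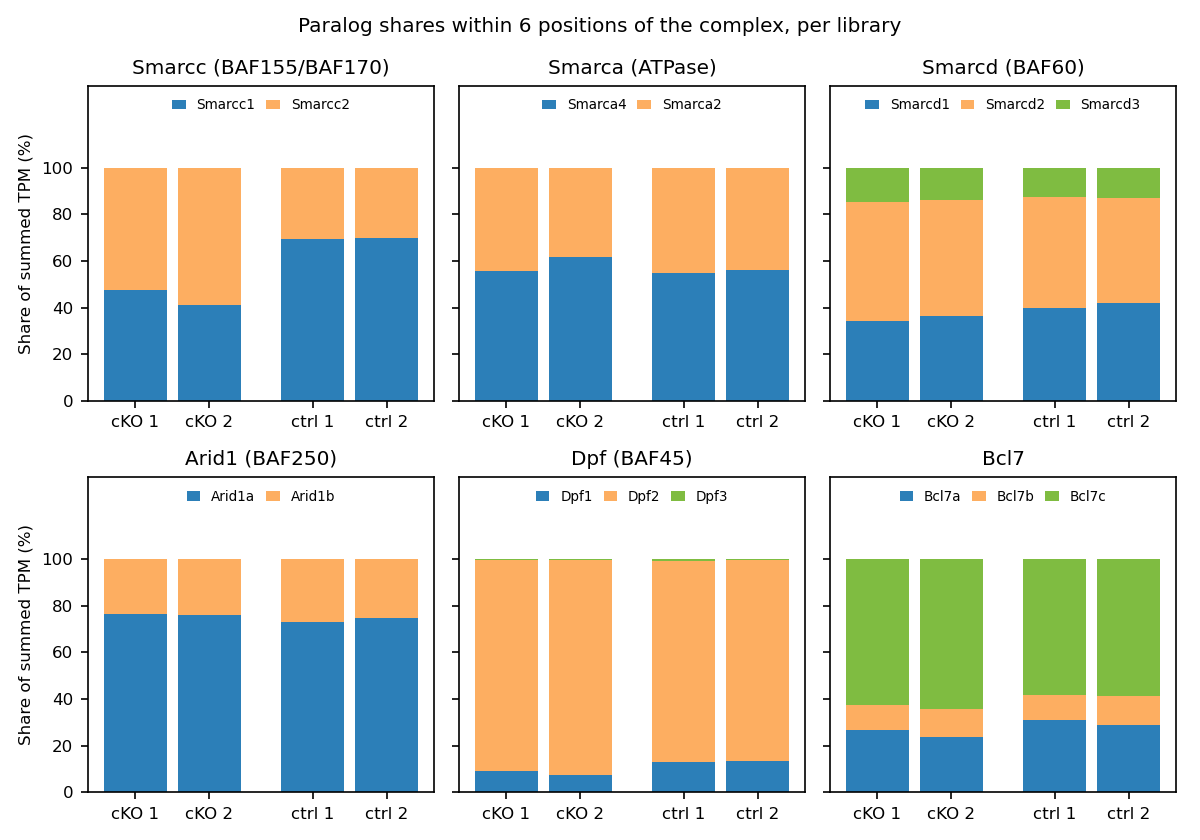
Share of each paralog in the summed TPM of its group (vertical axis, %) in each library, with the 2 Smarcc1 cKO libraries left of the 2 control libraries in each of 6 panels. Smarcc1 takes 47.5% and 41.2% of its pair in mutant buds against 69.3% and 69.7% in control buds; the other panels differ by at most 5.69 percentage points between genotype means.

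The remodellers outside BAF were described from 67 genes of the ISWI, CHD and NuRD, INO80, SRCAP and TIP60, and other Snf2 families, with Actb, whose product is also a BAF subunit, in the last group. Of these 66 were tested, and 0 passed by limma. Before adjustment 1 higher gene (Chd3) and 3 lower genes (Mbd2, Chd9 and Kat5) had a p under 0.05. Among all genes tested this was so for 6.78% higher and 6.89% lower, 13.7% in all. The groups did not overlap for 36 of the 66, 54.5%, beside 43.9% of all genes tested. The median log2 fold change of the 66 was 0.00 and their range -0.45 to 0.41, beside -1.44 for Smarcc1. Chd3, an ATPase of the NuRD repressor complex, had 139.2 and 141.0 TPM in mutant buds, against 101.2 and 109.7 TPM in control buds (limma adjusted p = 0.165, and 0.0496 with somite stage as a block). Actr5, a subunit of INO80, and Rad54l, a recombination enzyme, had the next smallest p-values among the higher genes (log2 fold changes 0.32 and 0.23; limma adjusted p = 0.409 and 0.488). Mbd2, a methyl-CpG binding subunit of NuRD, had 27.8 and 30.3 TPM in mutant buds, against 43.2 and 37.2 TPM in control buds (limma adjusted p = 0.194). Chd9 had 49.5 and 53.9 TPM in mutant buds, against 62.7 and 73.4 TPM in control buds (limma adjusted p = 0.248). Kat5, the acetyltransferase of TIP60, had 39.7 and 41.4 TPM in mutant buds, against 49.3 and 49.55 TPM in control buds (limma adjusted p = 0.313).

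**Figure D5:**
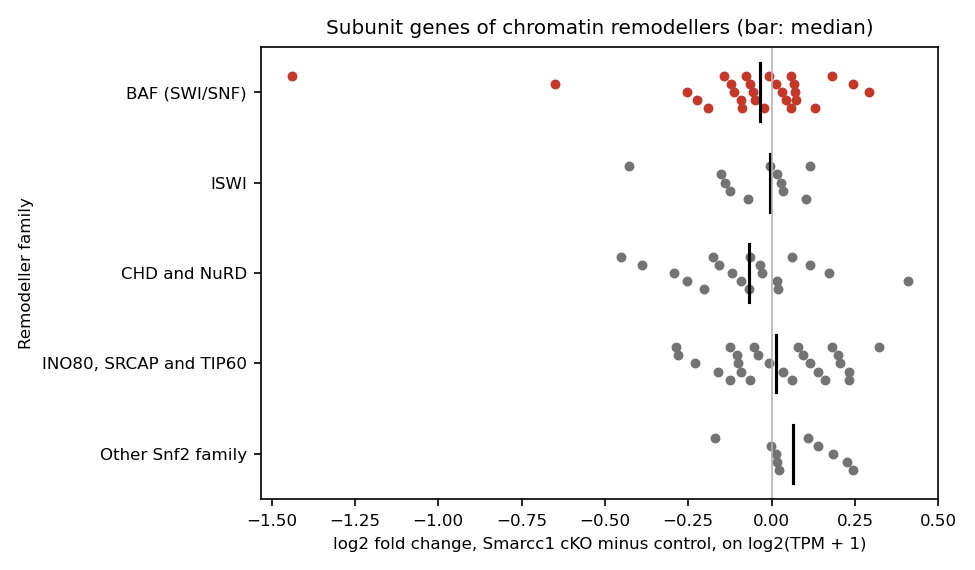
Log2 fold change on log2(TPM + 1), Smarcc1 cKO minus control (horizontal axis), of the genes tested in the BAF family (28 genes) and in 4 other remodeller groups (66 genes), 1 point per gene, with a bar at each median. Smarcc1 and Dpf1 are the 2 lowest points, and all points of the other groups lie between -0.45 and 0.41.

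In the tissue itself, the 6 limb mesenchyme markers summed to 634.9 and 716.1 TPM in mutant buds and 651 and 794.6 TPM in control buds and each stood above 1 TPM in every library. Within that list Pdgfra rose and Msx1 fell (limma adjusted p = 0.0165 and 0.0117), and 4 did not pass. With somite stage as a block Prrx1, whose enhancer drives PrxCre, also passed as lower, with a log2 fold change of -0.53 (limma adjusted p = 0.0293). Macrophage markers were scarce, with 6 genes summing to 9.53 and 8.81 TPM in mutant buds and 9.76 and 15.5 TPM in control buds. How far these shifts in cell type markers bear on the subunit genes was not tested.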

How the data were processed

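Libraries were made from total RNA of single embryos' forelimb pairs. The authors deposited gene-level TPM values, 1 column per library, each summing to 1000000 over 35727 Ensembl identifiers. Per the submitters' processing notes, the tool was Salmon 1.9.0 and the build mm10. No source used here gives the transcript set or the settings. Columns were matched to sample titles, 1 of which lacks a letter of its column name.

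Symbols were found for 99.1% of identifiers, and 38 repeated symbols were summed. Coordinates are those of GENCODE M21 (mm10), counted from 1. Values of genes that 2 or more libraries held at 1 TPM or above entered limma 3.58.1 (R 4.3.3) on the log2(TPM + 1) scale, fitted by genotype alone with a variance trend and with Benjamini-Hochberg adjustment over all 12809 genes at 0.05. The fold understates changes of genes with low TPM. Depth is unknown, so no counting interval is given, and precision rests on n = 2 embryos per genotype. Shares are percentages of summed TPM in a library, without pseudocount. The fit was also tested on simulated data with known changes, where the share of false calls averaged above the nominal level of the threshold.

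All 30 subunit genes are named by rule; values in every library are given for Smarcc1, Smarcc2 and Dpf1 under that rule and for others where a paralog share uses them; values beyond the rule were added so that every member is accounted for. The members and the gene lists were chosen with earlier results of these data known. One gene of the muscle progenitor list is not reported here, and the counts and sums of that list leave it out. Of the 30 genes, 14 share exon positions with a gene on the opposite strand. Alternatives covered pseudocount, filter, scaling, somite stage, variance model, threshold and each library left out.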

Additional observations from a re-analysis of the deposited data

How the results depend on the processing

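The fold of Smarcc1 kept its direction in every alternative tried and passed in all but the fit with no filter on low values (log2 fold change -1.44, adjusted p 0.111), in which 0 subunit genes were called lower and 0 of all genes passed by limma, with 2338 genes at an unadjusted p under 0.05. With a library left out, the log2 fold change of Smarcc1 ran from -1.57 to -1.31. Of the other subunit genes none passed in any fit, the smallest adjusted p being 0.0525, for Dpf1 without knockout replicate 1. The count over all genes was 533 with somite stage as a block, 275 with a robust variance, 316 at a threshold of 0.1 and 50 to 646 with a library left out (646 and 501 without knockout replicate 1 and 2, 59 and 50 without control replicate 1 and 2); there the lone library of a genotype is assumed to vary like the other pair. With the block, Dpf1 had a limma adjusted p of 0.0677 (0.0525 to 0.28 over the alternatives), and among the other remodeller genes 1, Chd3, was called (0.0496). The block also removes sex. Across 12809 genes, which are not independent, embryos of equal stage deviated together from their genotypes (Pearson 0.25, Spearman 0.36). The block pairs libraries by the somite stage in the labels, which give no replicate numbers; the numbers used in the text follow stage. The median log2 fold change of the subunit genes, -0.0364, ran from -0.0778 to 0.0385 with a library left out.

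Of 420 values of single subunit genes under the alternatives, 398 kept direction and call, 1 lost its call and 21 in 13 genes changed sign, all of genes that did not pass. A change of filter, somite stage block, variance model or threshold leaves the fold of a gene the same. Values under those alternatives could not change sign, so the count of 398 overstates stability. With a library left out the log2 fold changes ran from -0.1338 to 0.0064 for Actl6a, -0.0239 to 0.161 for Arid1a, -0.328 to 0.0447 for Bcl11b, -0.127 to 0.242 for Bcl7b, -0.0698 to 0.133 for Bicra, -0.0889 to 0.115 for Bicral, -0.0662 to 0.150 for Dpf2, -0.148 to 0.101 for Smarca4, -0.214 to 0.0285 for Smarcb1, -0.225 to 0.0485 for Smarcd1, -0.0284 to 0.0103 for Smarce1, -0.0113 to 0.273 for Ss18 and -0.127 to 0.0171 for Ss18l1. Under quantile normalization that of Dpf2 was -6.9e-05. Among genes that kept their sign, Smarcc2 ran from 0.0065 to 0.107, Smarca2 from -0.312 to -0.139 and Smarcd3 from 0.172 to 0.409. The cause of these shifts was not tested. The difference in the Smarcc1 share ran from -28.3 to -22.0 percentage points with a library left out and was -24.8 with a TPM of 1 added to each paralog.

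With 2 embryos per genotype and unknown depth, small differences in the subunit genes are not detectable, and Dpf3 and Actl6b are too low to compare.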

Other observations

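A shift in paralog balance larger than in any BAF group but the scaffold pair was seen in NuRD, in a comparison chosen after its values were seen. Chd3, with 139.2 and 141.0 TPM in mutant buds and 101.2 and 109.7 TPM in control buds, made up 54.3% and 52.1% of the summed TPM of Chd3 and Chd4 in mutant buds, against 42.5% and 42.6% in control buds. Chd4, the alternative ATPase of the complex, had 117.3 and 129.6 TPM in mutant buds and 136.7 and 147.5 TPM in control buds. Chd3 was the more abundant of the pair in both knockout libraries and Chd4 in both controls. Neither gene passed over all genes without a block (limma adjusted p = 0.165 and 0.515). With somite stage as a block Chd3 passed (limma adjusted p = 0.0496) and Chd4 did not (0.157). Chd3 was the 1 gene called with the block among the 66 other remodeller genes, where 4.16% of all genes tested were called. The exact two-sided permutation p of the share was 0.333, the smallest that 2 against 2 libraries can give. The shares of Mbd2 and Mbd3, alternative subunits of the same complex, overlapped between genotypes, with Mbd2 at 20.25% and 19.2% in mutant buds and 24.8% and 18.8% in control buds.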
